A study of Drosophila melanogaster with 6 samples.

Results

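The genes described here are 6 members of the hypoxia-inducible factor (HIF) pathway of Drosophila melanogaster, chosen by name among 23882 counted features: sima, tgo, Hph, Vhl, scyl and chrb. All 6 were found by symbol and all 6 passed the filter on low counts, among 11293 features tested. Messenger RNA was sequenced in S2, an established line from fly embryos, and every library was taken at day 3. The groups were cells given Hlc dsRNA 2, cells given Hlc dsRNA 3 and control cells given dsRNA against beta-gal, with 2 libraries in each. All groups therefore received dsRNA, which S2 cells take up and use to silence the matching gene, and all come from 1 cell line. Hlc is a DEAD-box RNA helicase, and the study asks about its part in how stress genes are transcribed without stress.

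In flies as in mammals, HIF is a pair of basic helix-loop-helix PAS proteins. The sima protein is the oxygen-regulated alpha subunit and tgo is its constitutive partner, the fly ARNT. With oxygen present, the prolyl hydroxylase Hph, also called fatiga, marks sima for recognition by Vhl, the substrate receptor of a ubiquitin ligase, and sima is degraded. In low oxygen sima accumulates and induces genes that include Hph itself, lactate dehydrogenase and scyl and chrb, relatives of mammalian REDD1 that restrain the growth kinase TOR. Much of this control acts on the protein, whereas the values here are transcript levels in cells for which the labels name no oxygen treatment.

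The 6 libraries held 56195472 to 84283999 counts. Levels are in CPM, the count per 1000000 counts, scaled to a common library size adjusted by the TMM method of edgeR, and the TMM factors were 1.13 to 1.16 in the Hlc dsRNA libraries and 0.751 and 0.778 in the controls. The target Hlc stood at 16.1 and 19.7 CPM with dsRNA 2 and at 20.0 and 19.2 CPM with dsRNA 3, against 317 and 316 CPM in the controls. This separated both dsRNA groups from the controls, as their labels say, but could not tell dsRNA 2 from dsRNA 3. Of the 10 listed markers of plasmatocytes, the phagocytic blood cells that S2 cells resemble, 8 were at 1 CPM or more in every library, and Hml and NimC1 were under 1 CPM in every library. The summed level of that marker list was 11242 to 12342 CPM in the 4 Hlc dsRNA libraries, against 6440 and 6087 CPM in the controls. Most of that sum came from the matrix genes Col4a1 and vkg and from Nplp2. Of the 9 markers tested, 6 were higher, 2 (srp and crq) were lower and 1 was not called. Of all features tested, 32.2% were higher and 32.6% lower. The 3 lamellocyte markers summed to 14.7 to 17.2 CPM in the Hlc dsRNA libraries, against 71.6 and 70.6 CPM in the controls. Nearly all of that sum was 1 gene, PPO3, at 14.4 to 16.7 CPM against 68.4 and 67.2 CPM. No library held more than 3.49 CPM of ItgaPS4 or 0.164 CPM of atilla. The part of these marker changes in the results below was not tested. In bulk RNA, fewer cells of a type and less RNA per cell cannot be told apart.

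Transcripts of 4 of the 6 genes, sima, tgo, Hph and scyl, fell after Hlc dsRNA, and in each of the 4 genes every Hlc dsRNA library lay below both controls. Vhl and chrb did not pass the test, and their Hlc dsRNA and control libraries overlapped. A gene was called at an adjusted p under 0.05, from the quasi-likelihood test of edgeR with Benjamini-Hochberg adjustment over all features tested. By that rule 64.8% of all features were called with both Hlc dsRNAs against control, with 32.6% of all features lower and 32.2% higher, and in 35.4% of all features every Hlc dsRNA library lay below both controls. The 4 falls among 6 genes stand against that background. The median log2 fold change of the 6 genes was -0.98, and that of all 11293 features was 0.04.

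**Figure D1:**
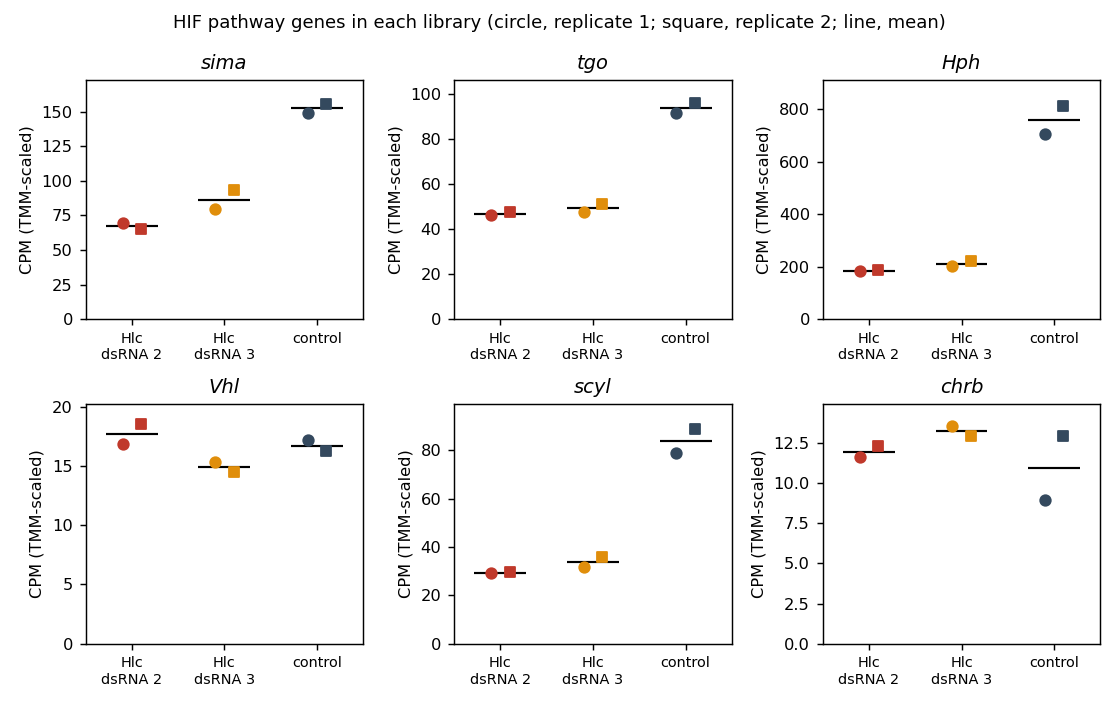
Level of each of the 6 genes in CPM (vertical axis, from 0) in the 2 libraries of each group, with the group mean as a line. In sima, tgo, Hph and scyl the 4 Hlc dsRNA libraries sit below both controls, while in Vhl and chrb the groups overlap.

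The 2 subunits of HIF fell by similar amounts. The alpha subunit gene sima (FBgn0266411, chromosome 3R, 30058311 to 30121798, plus strand) stood at 69.6 and 65.1 CPM with dsRNA 2 and at 79.7 and 93.1 CPM with dsRNA 3, against 149 and 156 CPM in the controls. All 4 Hlc dsRNA libraries were low, and those with dsRNA 2 were the lowest. The mean was 76.9 ± 12.4 CPM with Hlc dsRNA (SD, n = 4) and 152 ± 4.81 CPM in the controls (SD, n = 2). This gave a log2 fold change of -0.996 (SE 0.07, adjusted p 1.28e-05 by edgeR's quasi-likelihood test), with 50.5% of the control level left.

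The partner gene tgo (FBgn0264075, chromosome 3R, 9016773 to 9020022, minus strand) stood at 46.3 and 47.6 CPM with dsRNA 2 and at 47.8 and 51.0 CPM with dsRNA 3, against 91.4 and 95.9 CPM in the controls. The 4 Hlc dsRNA libraries lay close together and well below both controls. This gave a log2 fold change of -0.96 (SE 0.05, adjusted p 3.75e-06 by edgeR's quasi-likelihood test). The exons of tgo share 1.61% of their bases with CG11986 on the other strand.

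The ratio of tgo to sima counts within a library, which does not depend on scaling, was 0.665 and 0.732 with dsRNA 2 and 0.599 and 0.548 with dsRNA 3, against 0.614 and 0.616 in the controls. The control ratios lay between those of the dsRNA groups. Taking the 4 Hlc dsRNA libraries together, the log2 difference was 0.04 (exact two-sided permutation test, p 0.867, adjusted p 0.867 over the 3 ratios examined). With 4 libraries against 2 this test cannot give a p below 0.0667. The ratios with dsRNA 2 and with dsRNA 3 lay on opposite sides of the controls. The pooled value therefore cannot show that the ratio stayed the same.

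The degradation genes differed from each other. Hph (FBgn0264785, chromosome 3R, 5257037 to 5269507, plus strand) had the lowest log2 fold change of the 6 genes. It stood at 183 and 187 CPM with dsRNA 2 and at 202 and 222 CPM with dsRNA 3, against 704 and 812 CPM in the controls. No Hlc dsRNA library came near the control range. The mean was 199 ± 17.6 CPM with Hlc dsRNA (SD, n = 4) and 758 ± 76.7 CPM in the controls (SD, n = 2), a log2 fold change of -1.94 (SE 0.07, adjusted p 5.51e-07 by edgeR's quasi-likelihood test), leaving 26.2% of the control level. An absolute log2 fold change larger than this was found in 13.5% of all features tested. For the other genes that fell, the same share was 21.8% for scyl, 34.6% for sima and 36.3% for tgo. Hph has 4 annotated transcripts from 2 start sites, and the counts do not separate them. It shares 9.92% of its exonic bases with CR45033 on the same strand, a gene with at most 39 counts in any library.

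Vhl (FBgn0041174, chromosome 2R, 11279725 to 11281033, plus strand) stood at 16.9 and 18.5 CPM with dsRNA 2 and at 15.4 and 14.5 CPM with dsRNA 3, against 17.2 and 16.2 CPM in the controls. The controls fell inside the range of the Hlc dsRNA libraries. It had a log2 fold change of -0.04 (SE 0.09, adjusted p 0.708 by edgeR's quasi-likelihood test). Of the exonic bases of Vhl, 42.0% are also exonic in CG9062 on the other strand, and since the strand setting of the counting is not given, reads of these genes may not have been told apart. By its own counts CG9062 fell to 31.8 ± 1.10 CPM with Hlc dsRNA (SD, n = 4), against 53.7 ± 1.32 CPM in the controls (SD, n = 2), with a log2 fold change of -0.76 (SE 0.06, adjusted p 3.44e-05 by edgeR's quasi-likelihood test).

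The ratio of Hph to Vhl counts was 10.9 and 10.1 with dsRNA 2 and 13.1 and 15.4 with dsRNA 3, against 41.0 and 50.1 in the controls. Every Hlc dsRNA library was below both controls, and the log2 difference was -1.89 (exact two-sided permutation test, p 0.0667, the smallest it can give, adjusted p 0.100 over the 3 ratios).

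The 2 REDD1 relatives also differed from each other. scyl (FBgn0041094, chromosome 3L, 11252307 to 11256172, plus strand) stood at 29.2 and 29.6 CPM with dsRNA 2 and at 31.5 and 35.8 CPM with dsRNA 3, against 78.8 and 88.7 CPM in the controls. All Hlc dsRNA libraries were low. The mean was 31.5 ± 3.03 CPM with Hlc dsRNA (SD, n = 4) and 83.7 ± 7.05 CPM in the controls (SD, n = 2). This amounted to a log2 fold change of -1.41 (SE 0.07, adjusted p 3.47e-06 by edgeR's quasi-likelihood test), leaving 37.6% of the control level.

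chrb (FBgn0036165, chromosome 3L, 11487550 to 11499055, plus strand) stood at 11.6 and 12.3 CPM with dsRNA 2 and at 13.6 and 13.0 CPM with dsRNA 3, against 8.95 and 12.9 CPM in the controls. One control was below all Hlc dsRNA libraries and the other was within their range. chrb thus had a log2 fold change of 0.20 (SE 0.15, adjusted p 0.281 by edgeR's quasi-likelihood test). The controls decided this value. Without control replicate 1 it was -0.04 (adjusted p 0.793), and without control replicate 2 it was 0.49 and was called higher (adjusted p 0.0173).

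Within a library, scyl counts were 2.51 and 2.40 times those of chrb with dsRNA 2 and 2.32 and 2.76 times with dsRNA 3, against 8.80 and 6.86 times in the controls. The Hlc dsRNA libraries were alike and all below both controls, with a log2 difference of -1.64 (exact two-sided permutation test, p 0.0667, the smallest it can give, adjusted p 0.100 over the 3 ratios). Both genes lie on the plus strand of chromosome 3L, 231 kb apart in the BDGP6 assembly, with 33 annotated genes lying wholly between them. Of these, 11 were tested. With Hlc dsRNA 5 of the 11 were higher, 1 was lower and 5 were not called, where 32.2% of all features were higher and 32.6% lower. The median log2 fold change of the 11 was 1.31, against 0.04 for all features. That median takes in genes that were not called, and most of the 33 were not tested. It does not show that the stretch as a whole rose.

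**Figure D2:**
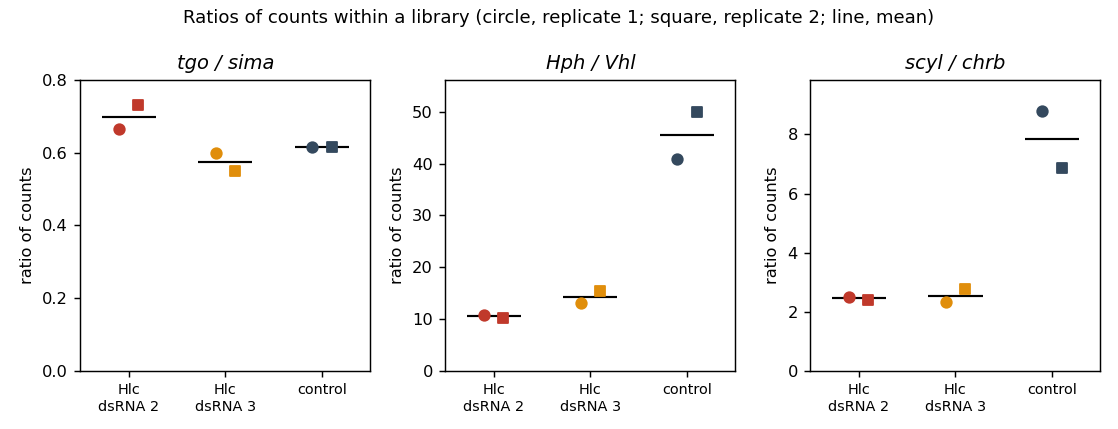
Ratio of the raw counts of tgo to sima, Hph to Vhl and scyl to chrb (vertical axes, from 0) in each library of each group, with the group mean as a line. The Hph to Vhl and scyl to chrb ratios are lower in all 4 Hlc dsRNA libraries than in both controls, and the tgo to sima ratios of the controls lie between those of the dsRNA groups.

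Levels of different genes were compared per kilobase of annotated exon. With Hlc dsRNA the order was Hph at 46.2 ± 4.10, tgo at 15.5 ± 0.65, Vhl at 12.5 ± 1.36, sima at 10.7 ± 1.73, scyl at 10.1 ± 0.97 and chrb at 2.12 ± 0.14 CPM per kb (SD, n = 4). In the controls it was Hph at 176 ± 17.8, tgo at 30.1 ± 1.04, scyl at 26.8 ± 2.26, sima at 21.2 ± 0.67, Vhl at 12.8 ± 0.52 and chrb at 1.84 ± 0.47 CPM per kb (SD, n = 2). With Hlc dsRNA the libraries of Vhl, sima and scyl overlapped, so their order is not separated from the spread. In the controls no neighbours in the order overlapped, although only 2 libraries bear on it. Hph was the highest and chrb the lowest per kilobase in every library. Exon lengths come from a later annotation than the counts may rest on, so differences between genes are less certain than those between groups.

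**Figure D3:**
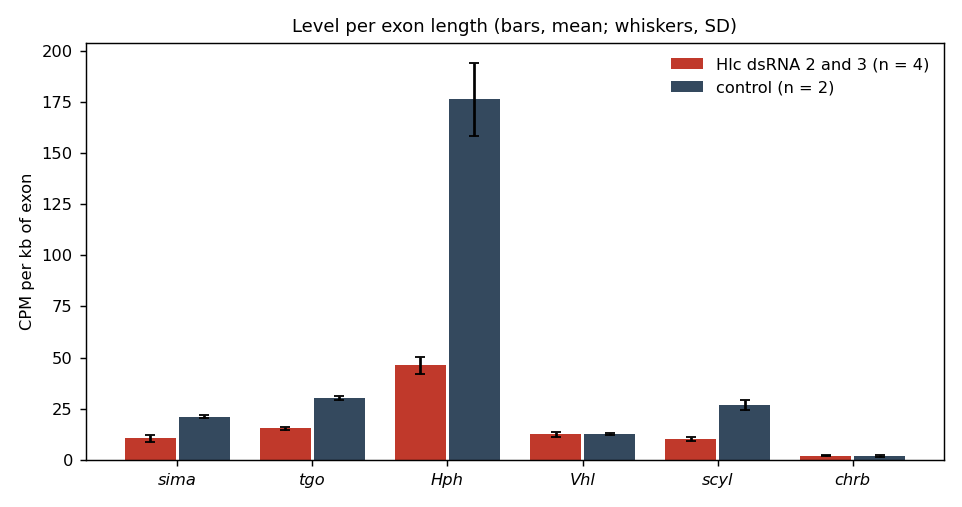
Mean level of each gene in CPM per kb of annotated exon (vertical axis, from 0) with Hlc dsRNA (n = 4) and in the controls (n = 2), with SD as whiskers. Hph is the highest in both, at 46.2 CPM per kb with Hlc dsRNA and 176 CPM per kb in the controls, and chrb the lowest.

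The 2 dsRNAs were next taken one at a time; they share the same controls, so their values are not independent. With dsRNA 2 against control, 4 of the 6 genes were lower where 30.3% of all features were. The log2 fold changes were -1.18 (SE 0.08) for sima, -0.997 (SE 0.06) for tgo, -2.03 (SE 0.09) for Hph and -1.51 (SE 0.09) for scyl, with adjusted p of 1.86e-05, 1.03e-05, 1.80e-06 and 9.24e-06 by edgeR's quasi-likelihood test. Vhl was at 0.08 (adjusted p 0.508) and chrb at 0.13 (adjusted p 0.557).

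With dsRNA 3 against control, the same 4 genes were lower where 31.6% of all features were. The log2 fold changes were -0.82 (SE 0.08) for sima, -0.92 (SE 0.06) for tgo, -1.84 (SE 0.08) for Hph and -1.31 (SE 0.09) for scyl, with adjusted p of 1.08e-04, 1.39e-05, 2.65e-06 and 1.63e-05 by edgeR's quasi-likelihood test. Vhl was at -0.16 (adjusted p 0.200) and chrb at 0.28 (adjusted p 0.207).

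Between dsRNA 3 and dsRNA 2, 0 of the 6 genes were called by edgeR, where 0.0797% of all features were. At an unadjusted p under 0.05 there were 2, sima and Vhl, where 20.3% of all features were. The sima transcript was higher by 0.36 on the log2 scale with dsRNA 3 than with dsRNA 2 (SE 0.08, p 0.00321, adjusted p 0.0937). DESeq2 called this difference (0.37, adjusted p 0.00192), and so did edgeR without Hlc dsRNA 3 replicate 1 (0.47, adjusted p 0.0461). Vhl was at -0.25 (SE 0.10, p 0.0442, adjusted p 0.230). Hph was at 0.19, scyl at 0.20, chrb at 0.15 and tgo at 0.07, with adjusted p of 0.249, 0.276, 0.687 and 0.554.

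**Figure D4:**
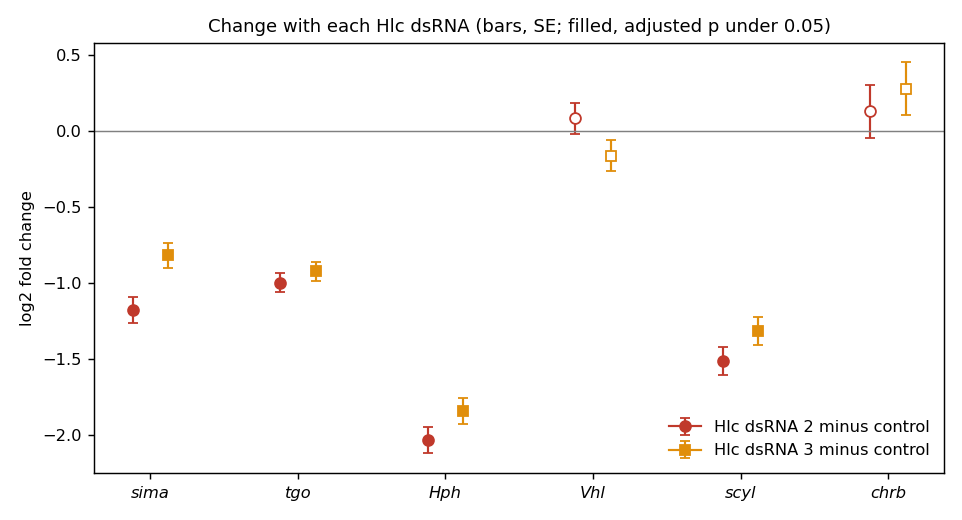
Log2 fold change of each gene (vertical axis) with Hlc dsRNA 2 and with Hlc dsRNA 3, each minus control, with the SE implied by the test as bars. Filled marks, at an adjusted p under 0.05, are seen for sima, tgo, Hph and scyl with both dsRNAs, from -0.82 to -2.03, and open marks for Vhl and chrb.

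The scaling between libraries set how large a change appeared, and the shares of the control level given above hold for TMM scaling only. With library size alone in place of TMM, the median of all features moved to 0.62. The log2 fold changes then were -0.41 for sima, -0.38 for tgo, -1.35 for Hph and -0.83 for scyl, all still called lower, while Vhl (0.54, adjusted p 9.27e-04) and chrb (0.78, adjusted p 0.00386) were called higher. A change of scaling moves all genes by about the same amount, so values relative to the median of all features do not depend on it by construction. On that relative scale, under TMM, sima was at -1.04, tgo at -1.003, Hph at -1.98, scyl at -1.46, Vhl at -0.08 and chrb at 0.16.

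Genes around these members were taken from 5 lists. The partners of Vhl in its ubiquitin ligase, namely the adaptors EloB and EloC, the scaffold Cul2 and the RING protein Roc1a, had 3 of 4 lower and 0 higher, where 32.6% of all features were lower, with a median log2 fold change of -0.45. Cul2 was at -0.58 (SE 0.04), EloB at -0.57 (SE 0.05) and Roc1a at -0.34 (SE 0.06), with adjusted p of 1.47e-05, 3.46e-05 and 0.00186 by edgeR's quasi-likelihood test. EloC was at 0.02 (adjusted p 0.854). These directions depended on the scaling, since with library size alone Cul2 and EloB were at 0.0068 and 0.017 and not called, and Roc1a was higher at 0.24. Relative to the median of all features, under TMM, Cul2 was at -0.62, EloB at -0.61 and Roc1a at -0.39.

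Other proteins of the bHLH-PAS family can pair with tgo or stand apart from it. Of 9 genes listed, 4 were tested, 2 higher and 2 lower, where 64.8% of all features were called. The coactivator gene tai (0.84, SE 0.06) and the juvenile hormone receptor gene gce (0.43, SE 0.07) rose, with adjusted p of 1.18e-05 and 0.00113 by edgeR's quasi-likelihood test. The exons of gce share 40.7% of their bases with antisense RNA genes. The clock gene cyc and the other juvenile hormone receptor gene, Met, each fell by 0.40 on the log2 scale (adjusted p 0.00110 and 0.00550), but were at 0.18 each with library size alone. The tgo partners sim, trh, ss and dysf were near 0: sim had 0 counts in every library, and no library held more than 0.123 CPM of trh, ss or dysf. The clock gene Clk also stayed under the filter, at no more than 0.235 CPM.

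Among 5 genes reported to affect sima in fly cells, 4 were higher and 1 was lower, where 32.2% of all features were higher and 32.6% lower. AGO1, the microRNA Argonaute, stood at 141 and 133 CPM with dsRNA 2 and at 150 and 159 CPM with dsRNA 3, against 70.2 and 76.5 CPM in the controls. Every Hlc dsRNA library was above both controls (log2 fold change 0.99, SE 0.06, adjusted p 5.98e-06 by edgeR's quasi-likelihood test). The AAA+ ATPase genes pont (0.80, SE 0.07) and rept (0.74, SE 0.04) rose, with adjusted p of 4.41e-05 and 6.04e-06. The nuclear export receptor gene emb was at 0.27 (adjusted p 0.00601), called with dsRNA 3 (0.40, adjusted p 0.00193) but not with dsRNA 2 (0.14, adjusted p 0.113), a difference between the dsRNAs that was not called (adjusted p 0.117). The RNA-binding protein gene msi fell by 0.60 (adjusted p 3.08e-04), and was at -0.02 and not called with library size alone.

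Of 6 other hypoxia response genes, 3 were lower, 2 higher and 1 not called, where 64.8% of all features were called. The 2 higher were btl, which was barely detected, and Pdk, whose call was lost in several settings given below. Ldh, lactate dehydrogenase, stood at 96.3 and 86.5 CPM with dsRNA 2 and at 106 and 116 CPM with dsRNA 3, against 6196 and 6370 CPM in the controls. The gap between the groups was wider than for any of the 6 members. The transcriptional repressor gene h stood at 101 and 89.5 CPM with dsRNA 2 and at 102 and 120 CPM with dsRNA 3, against 493 and 577 CPM in the controls (log2 fold change -2.38, SE 0.09, adjusted p 7.80e-07 by edgeR's quasi-likelihood test). The FGF ligand gene bnl stood at 19.2 and 15.0 CPM with dsRNA 2 and at 15.4 and 19.0 CPM with dsRNA 3, against 46.0 and 46.1 CPM in the controls (log2 fold change -1.42, SE 0.12, adjusted p 3.99e-05). In both genes all Hlc dsRNA libraries were below the controls.

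The FGF receptor gene btl moved the other way from its ligand but was barely detected, with 198 counts over the 4 Hlc dsRNA libraries and 9 over the 2 controls, all 9 of them in control replicate 2. The ratio after TMM scaling was 7.78, with a 95% exact binomial interval of 4.02 to 17.3 that covers counting error only, and its adjusted p was 0.0197 by edgeR's quasi-likelihood test. As btl passed the filter on low counts through its Hlc dsRNA libraries, that call was not independent of the filter. With a minimum of 1 CPM in at least 4 libraries btl was not tested. The fitted log2 fold change of btl was 2.99. It was 2.09 without control replicate 1, and without control replicate 2 the remaining control held 0 counts, so no fold is given. The btl call was lost without Hlc dsRNA 3 replicate 1 (2.87, adjusted p 0.0552). The pyruvate dehydrogenase kinase gene Pdk was at 0.25 (SE 0.09, adjusted p 0.0435). That call was lost without control replicate 1 (adjusted p 0.217), control replicate 2 (0.0730), Hlc dsRNA 2 replicate 2 (0.111) or Hlc dsRNA 3 replicate 2 (0.100), and without the filter on low counts (0.0579). The phosphofructokinase-2 gene Pfrx was at 0.0094 (adjusted p 0.925).

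In the TSC and TOR branch on which scyl and chrb act, 6 of 10 genes were lower, 2 higher and 2 not called, where 32.6% of all features were lower and 64.8% called, with a median of -0.24. Thor, the 4E-BP translation inhibitor that TOR phosphorylates, stood at 175 and 164 CPM with dsRNA 2 and at 198 and 249 CPM with dsRNA 3, against 2258 and 2484 CPM in the controls. REPTOR-BP, a transcription factor of the TOR response, was at -0.77 (SE 0.11), gig, the fly TSC2, at -0.50 (SE 0.06), and the GTPase gene Rheb at -0.48 (SE 0.06), with adjusted p of 7.55e-04, 3.27e-04 and 2.29e-04 by edgeR's quasi-likelihood test. The TOR complex genes raptor (-0.31, adjusted p 0.00271) and Lst8 (-0.17, adjusted p 0.0308) were lower, Tor itself was at -0.13 (adjusted p 0.0694) and Tsc1 at -0.15 (adjusted p 0.119). S6k, the ribosomal protein S6 kinase, was at 0.18 (adjusted p 0.0271) and REPTOR at 0.23 (adjusted p 0.0366).

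In this branch Tsc1, gig, Rheb, Tor, raptor and Lst8 changed side with the scaling. S6k and REPTOR were called higher under every scaling, though the size of their change differed. REPTOR-BP stayed below 0 but was not called with library size alone (-0.18). With library size alone 6 of the 10 were higher and 1, Thor, was lower, and the median was 0.34. Relative to the median of all features, under TMM, gig was at -0.55, Rheb at -0.52, raptor at -0.36 and Lst8 at -0.21. Of the exonic bases of raptor, 26.9% are shared with other genes. The S6k call was lost without control replicate 1 (adjusted p 0.137), control replicate 2 (0.0980) or Hlc dsRNA 2 replicate 1 (0.0949). The REPTOR call was lost without control replicate 1 (adjusted p 0.112), control replicate 2 (0.154) or Hlc dsRNA 2 replicate 2 (0.0875). Lst8 lost its call without control replicate 1 (adjusted p 0.153), Hlc dsRNA 2 replicate 1 (0.0966) or 2 (0.0787), or Hlc dsRNA 3 replicate 2 (0.0610), as well as with upper-quartile factors (-0.024, adjusted p 0.741) and without the filter (0.0510). Tor was called lower without control replicate 2 (-0.19, adjusted p 0.0370).

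**Figure D5:**
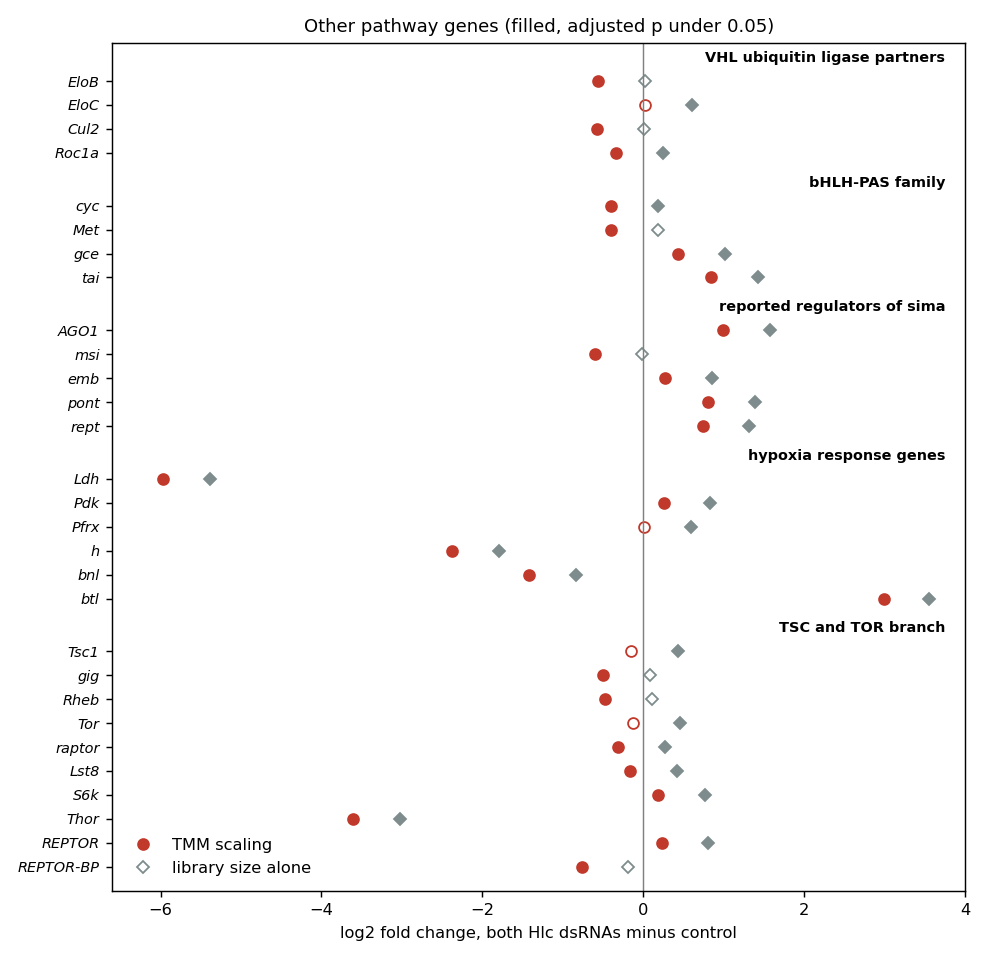
Log2 fold change with both Hlc dsRNAs minus control (horizontal axis) of the 29 tested genes of the 5 lists, with TMM scaling (circles) and with library size alone (diamonds), filled where the adjusted p was under 0.05. Ldh, Thor, h and bnl are lower under both scalings. The genes from -0.58 (Cul2) to -0.13 (Tor) under TMM change side.

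The genes whose profile over the 6 libraries was most like that of each member were found by the Euclidean distance between log2 CPM values centred on each gene's mean, among 4442 named features with a mean of at least 5 CPM. Nearest to sima were Non1 (distance 0.135), cnc (0.143) and Cont (0.145). Nearest to tgo were GlcT (0.0448), Rab6 (0.0601) and Pngl (0.0614), and nearest to Hph were Mob2 (0.125), ref(2)P (0.150) and red (0.159). Nearest to scyl were Nf-YC (0.0941), pod1 (0.110) and Gs1 (0.116). For the genes that were not called, the nearest to Vhl were Prosalpha3 (0.0701), elm (0.0709) and ksh (0.0723), and the nearest to chrb were Parp (0.200), Sbf (0.209) and Eato (0.236). No member was among the nearest 3 of another, but with 3 places among 4442 candidates this says little about whether members vary together.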

How the data were processed

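The authors deposited 1 table of raw counts, whole numbers per feature and library. Columns were matched to libraries by name, and 0 columns were left unused. The submitters' processing notes name Trimmomatic 0.36, TopHat2 2.1.0, StringTie 2.1.7 and the BDGP6 build, without saying what each did. How reads were counted, and whether by strand, is not given in the sources used here. RNA was polyadenylated and prepared with a TruSeq kit, per the labels' protocols.

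Counts were tested in R 4.3.3 with edgeR 4.0.16 (filterByExpr, TMM, glmQLFit, glmQLFTest). A single model held the 6 libraries and the 3 groups, leaving 3 residual degrees of freedom before moderation. SE is the size of the log2 fold change over the square root of the F statistic, so it is implied by the test. Replicates of a group varied beyond sampling noise (chi-square over its degrees of freedom, 27.4 to 37.9), so each library counts as 1 replicate, and the series calls them biological replicates. Positions (1-based) and exon lengths come from Ensembl release 115, assembly BDGP6.54, which holds 99.7% of the identifiers.

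The named genes were the 6 members, Hlc, every gene of 5 pathway lists, and the 3 nearest profiles of each member. The members and lists were chosen with earlier results of these data known. Alternatives were 3 other scalings, 2 other filters, DESeq2 1.42.0, limma-voom (limma 3.58.1), a block for the replicate number, leaving out each library, and fits of only the groups compared. Leaving out a library leaves a group with 1 sample, assumed to vary like the others.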

Additional observations from a re-analysis of the deposited data

How the results depend on the processing

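The falls of sima, tgo, Hph and scyl with both Hlc dsRNAs kept their direction and their call under all 14 alternatives, with log2 fold changes of -1.06 to -0.41 for sima, -0.997 to -0.38 for tgo, -2.04 to -1.35 for Hph and -1.50 to -0.83 for scyl. With dsRNA 3 alone, sima was at -0.23 and not called with library size alone (adjusted p 0.0659). Vhl turned to 0.10 with upper-quartile factors (adjusted p 0.336) and 0.54 with library size alone, where it was also 0.43 with dsRNA 3. chrb was at 0.78 with library size alone and at -0.040 to 0.49 with 1 library left out, and with dsRNA 2 it was at -0.12 without control replicate 1 and 0.42 without control replicate 2.

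All libraries were taken at day 3, and no batch is stated for the replicate numbers. Deviations of same-numbered libraries correlated at -0.04, 0.00 and -0.03 between groups. With the replicate number as a block, 7099 features were called in place of 7321 with both dsRNAs, and the block changed no call of a member. Features called between dsRNA 3 and dsRNA 2 numbered 9. They numbered 1 with library size alone, with the replicate block and with only these groups fitted, 34 without the filter, 172 with a minimum of 1 CPM in at least 4 libraries, 327 by limma-voom, 1221 by DESeq2, and 1 to 148 with 1 library left out. Statements on that comparison therefore depend on the tool.

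For Hlc and the 29 tested genes of the lists, 379 of 419 values kept direction and side of the threshold, 20 lost the call, 3 gained it and 17 turned. Upper-quartile factors turned Tor (0.017). Library size alone turned EloB (0.017), Cul2 (0.0068), Roc1a (0.24), cyc (0.18), Met (0.18), Tsc1 (0.43), gig (0.078), Rheb (0.10), Tor (0.46), raptor (0.27) and Lst8 (0.41). That setting shifts all genes by about the same amount (median of all features 0.62, against 0.04 with TMM), and relative to the median these genes keep their sign by construction. With 1 library left out Pfrx was at -0.024 to 0.047 and EloC at -0.050 to 0.079. The count between the dsRNAs was too unstable, and the 2 libraries per group too few, to say that the dsRNAs act alike on these genes.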
